A study of Mus musculus with 8 samples.

Results

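The scavenger receptors described here are 10 genes, Cd36, Msr1, Scarb1, Olr1, Marco, Colec12, Cd163, Cd68, Stab1 and Cd5l, of 34844 gene names on a mouse expression array. They were chosen by name, and every non-control probe that carries one of these names was used, which gave 13 probes with at least 1 for each gene. Levels were read in bone marrow-derived macrophages (BMDMs) from 4 male C57BL/6J mice, with no allele or agent named in the labels beyond the siRNA. From each mouse, 1 sample was transfected with control siRNA and 1 with siRNA against the loop end (terminal loop) of Y RNAs (RNY), giving 4 arrays a group and 8 in all. Samples were assigned to mice by the replicate number in the labels, which do not name the mouse of each sample. Y RNAs are short noncoding transcripts known as partners of the Ro60 and La proteins, and the comparison asks which macrophage genes differ when they are targeted. Both groups were transfected, so what transfection itself does is shared by them. The sources used here do not give mouse age, culture conditions, siRNA dose or the interval between transfection and harvest.

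Scavenger receptors are a mixed set of membrane and secreted proteins that bind modified lipoproteins, bacteria, dying cells and other polyanionic or lipid ligands. In macrophages they carry these ligands to endosomes and lysosomes, and uptake of oxidised low-density lipoprotein through CD36 and the class A receptors is a textbook route to lipid-laden foam cells. The class A members are Msr1, Marco and Colec12, class B holds Cd36 and Scarb1, and the others belong to further classes or, like Cd5l, are secreted proteins with scavenger receptor cysteine-rich domains.

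A level below is the log2 background-corrected signal of a probe minus that array's own 75th percentile. A level of 0 is therefore the 75th percentile of the array, and levels of different probes were not compared with each other. A difference is the Y RNA siRNA minus the control siRNA, in log2 units, so that 1 is a 2-fold change. Between 48.7% and 50.7% of the spots on each array were well above background and 0 were saturated. RNA integrity numbers were 10 in all samples but the control of mouse 4, which had 8. The cells matched their label, with 7 of 7 macrophage markers (Csf1r, Adgre1, Itgam, Fcgr1, Lyz2, Cd14, Mertk) well above background on every array. Of the markers of other cells, 0 of 4 erythroid, 1 of 5 dendritic cell, 5 of 8 neutrophil, 3 of 6 lymphocyte, 2 of 5 endothelial, 1 of 4 adipocyte, 2 of 4 platelet, 4 of 6 fibroblast and 3 of 4 osteoclast genes were well above background on at least 4 arrays.

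Of the 10 receptors, 8 (11 probes) were well above background on all 8 arrays, and Olr1 and Cd163 were near or below it. None of the 8 passed the threshold for the siRNA difference. The receptor with the largest difference was Marco, with a mean signal 1.79-fold higher under the Y RNA siRNA and higher in 4 of 4 mice. Scarb1 was slightly lower in 4 of 4 mice on both of its probes, and Colec12 was higher in 4 of 4 mice, mostly through mouse 4. The probes of Cd36, Msr1, Stab1, Cd68 and Cd5l differed between groups by -0.07 to 0.10. For Cd36, Msr1, Stab1 and Cd5l the range between the mice was wider than that.

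In limma without a block, 0 of the 11 receptor probes had an adjusted p under 0.05, against 0 of the 26820 probes tested on the array (0%). At an unadjusted p under 0.05 there were 3 receptor probes (Marco and both of Scarb1), against 884 probes on the whole array (3.3%). With the mouse as a fixed block, 0 receptor probes and 0 of all probes (0%) passed, and the unadjusted count was again 3 receptor probes against 2284 of all probes (8.52%). With the mouse as a random block, 0 receptor probes passed against 3 of all probes (0.0112%), and the smallest adjusted p of a receptor was 0.166. All 4 mice agreed in direction for 4 of 11 receptor probes, beside 18.5% of all probes. Of these, 2 (Marco and Colec12) were higher in every mouse, beside 9.84% of all probes, and 2 (both of Scarb1) were lower in every mouse, beside 8.67%. The difference was above 0 for 5 of 11 receptor probes and for 52.3% of all probes. Taking the brightest probe of each gene, the median difference of the 8 receptors was -0.01, beside 0.005 over all tested probes. Without a block, the 95% interval of the difference excluded a 2-fold change for 9 of 11 probes and a 1.5-fold change for 7 of 11. The exceptions at 2-fold were Marco and Cd5l, whose intervals with the mouse as a block were 0.59 to 1.08 and -0.12 to 0.17. These counts were not taken over all probes.

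**Figure D1:**
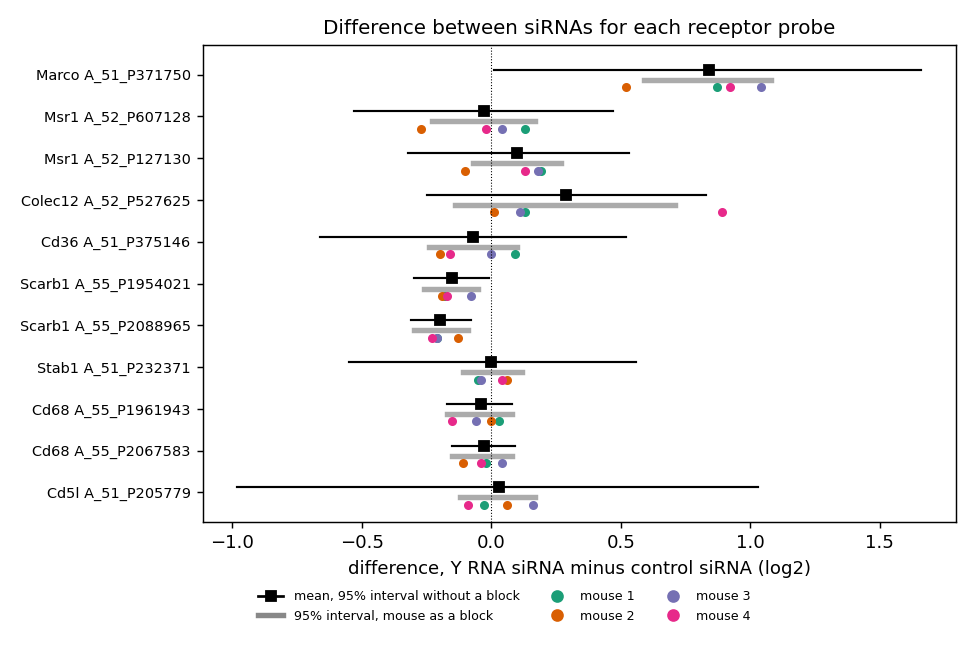
Difference between the siRNAs (x axis, Y RNA siRNA minus control siRNA, log2) for the 11 receptor probes tested. Squares and thin lines are the mean of 4 mice and its 95% interval in limma without a block, thick grey lines are the 95% interval with the mouse as a block, and coloured points are single mice. Marco lies furthest from 0 at 0.84 with all 4 mice above 0, both Scarb1 probes have all mice below 0, and the Cd5l interval runs from -0.98 to 1.03.

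Among the class A receptors, Marco binds bacteria and unopsonised particles and is known as an inducible gene of macrophages. Its probe (chr1:122371115-122371134, mm9, minus strand, a 20-base interval being all that the file gives) read 4.90, 6.45, 5.64 and 5.65 in the control samples of mice 1 to 4. Under the Y RNA siRNA it read 5.76, 6.97, 6.68 and 6.57. Every mouse was higher under the Y RNA siRNA, while the groups overlapped, since control mouse 2 lay above the treated sample of mouse 1. The within-mouse differences were 0.87, 0.52, 1.04 and 0.92. Group means were 5.66 ± 0.64 and 6.50 ± 0.52 (SD, n = 4), a difference of 0.84 ± 0.36 (SE) with a 95% interval of 0.01 to 1.66, or 1.01-fold to 3.16-fold. The limma p was 0.0471 unadjusted and 1 adjusted, and with the mouse as a block it was 0.000355 unadjusted and 0.333 adjusted. With that block the 95% interval was 0.59 to 1.08 (SE 0.09), narrower than the interval without it. The difference was 0.69 within slide row 1 (mice 1 and 2) and 0.98 within row 2 (mice 3 and 4). Leaving out single arrays moved it between 0.58 (without control mouse 1) and 1.10 (without control mouse 2). In limma, the lowest adjusted p among the alternatives tried was 0.125, with the block and normexp background correction.

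Msr1, which encodes the class A receptor SR-A for acetylated and oxidised lipoprotein, has 2 probes on chromosome 8 that sample separate parts of the transcript. The one in the more 5' part (chr8:40709296-40709355, mm9, minus strand) is shown with that of Scarb1 below, because each of these genes was read by 2 probes of different sequence. For Scarb1 the 2 probes differed between siRNAs in the same direction. For Msr1 the signs were unlike, but both differences were smaller than their SE. The 5' Msr1 probe read 2.14, 2.75, 2.82 and 2.64 in controls and 2.33, 2.65, 3.00 and 2.78 under the Y RNA siRNA. The second (chr8:40689158-40689217, mm9, minus strand) read 2.43, 3.22, 3.28 and 2.98 in controls and 2.56, 2.96, 3.32 and 2.96 under the Y RNA siRNA. On both probes, mouse 1 was lowest under either siRNA and the groups overlapped almost fully. Their differences were 0.10 ± 0.18 and -0.03 ± 0.22 (SE), with 95% intervals of -0.32 to 0.53 and -0.53 to 0.47. Once each probe was centred on its own mean over the 8 arrays, the 2 Msr1 probes differed by a root mean square of 0.1.

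Colec12, the collectin-type class A member also called SRCL, read 0.24, 0.66, 0.66 and -0.40 in controls and 0.37, 0.68, 0.76 and 0.49 under the Y RNA siRNA. The low control sample of mouse 4, the one with an RNA integrity number of 8, stood apart from the other arrays. The within-mouse differences were 0.13, 0.01, 0.11 and 0.89, so mouse 4 alone was above 0.13. The mean difference was 0.29 ± 0.23 (SE) with a 95% interval of -0.25 to 0.83, and it was 0.06 without the control array of mouse 4 and 0.08 without both arrays of mouse 4. The part of RNA integrity in that value was not tested.

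**Figure D2:**
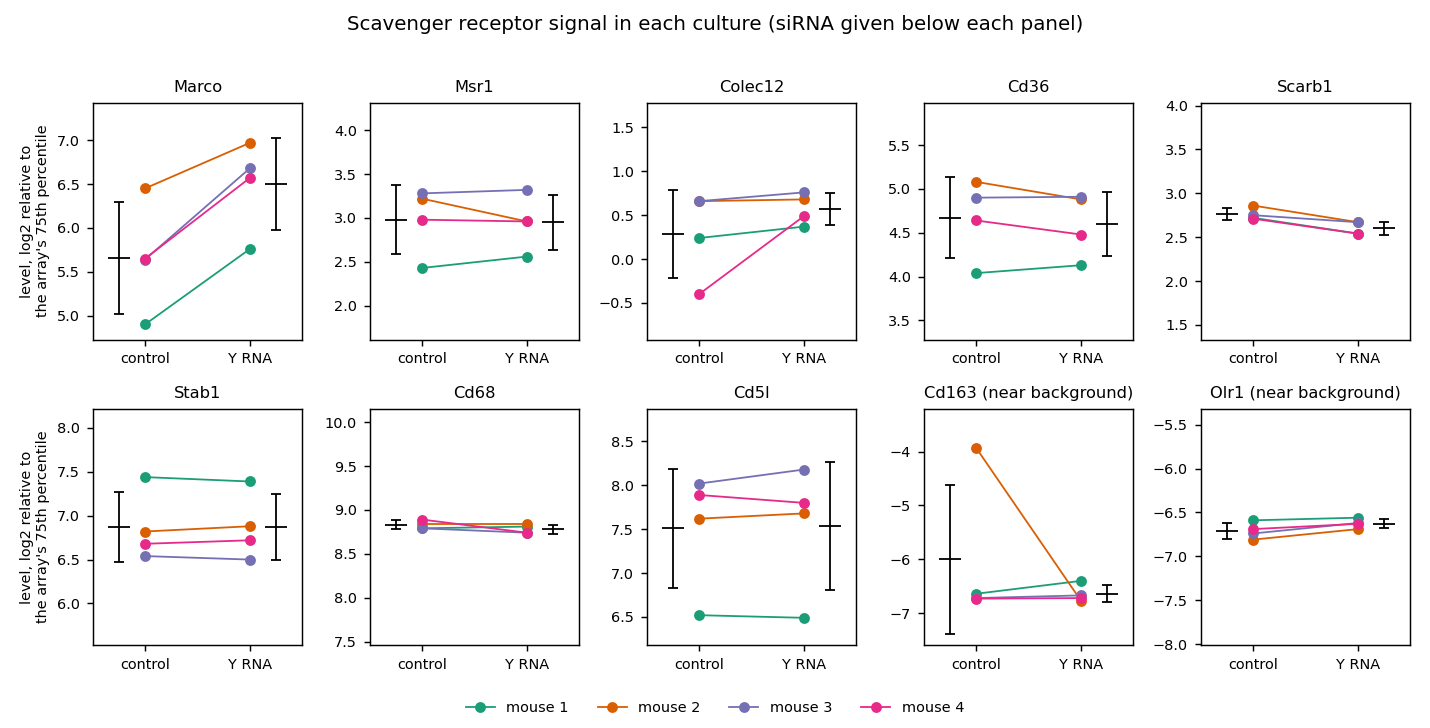
Level of each receptor (y axis, log2 over the array's 75th percentile, brightest probe) in control and Y RNA siRNA samples (x axis), with lines joining the 2 samples of a mouse and bars giving mean ± SD of 4. Every y axis but that of Cd163 spans the same number of log2 units. All 4 Marco lines end higher under the Y RNA siRNA, all 4 Scarb1 lines end slightly lower, mouse 1 lies apart for Cd36, Msr1, Stab1 and Cd5l, and Olr1 and 7 of the 8 Cd163 values were not well above background.

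Of the class B receptors, Scarb1 encodes SR-BI, the receptor for high-density lipoprotein. Its 60-base array probes lie on chromosome 5 (mm9, minus strand), at chr5:125757483-125757542 and chr5:125761540-125761599, and the second, with the 5' probe of Msr1, reads 5′ to 3′ in lower case as follows, both being open in 2 of their 3 sense reading frames.
Scarb1 A_55_P2088965: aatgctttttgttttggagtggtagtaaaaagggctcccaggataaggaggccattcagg
Msr1 A_52_P127130: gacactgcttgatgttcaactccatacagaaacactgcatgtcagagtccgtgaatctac
On the Scarb1 probe shown, controls read 0.97, 0.93, 1.01 and 0.96 and the Y RNA siRNA samples 0.76, 0.80, 0.79 and 0.73. The groups did not overlap, and every mouse was lower under the Y RNA siRNA. The difference was -0.20 ± 0.05 (SE), or 0.873-fold, with a 95% interval of -0.31 to -0.08. On the first probe, controls read 2.72, 2.86, 2.75 and 2.71 and the Y RNA siRNA samples 2.54, 2.67, 2.67 and 2.54, a difference of -0.15 ± 0.06 (SE) and 0.898-fold, again without overlap. Non-overlapping groups with the lower signal under the Y RNA siRNA made up 1.12% of all probes and those with the higher signal 1.3%. The limma p was 0.00374 and 0.0377 unadjusted and 1 adjusted for both probes, and the adjusted p with the block was 0.426 and 0.48. Once each probe was centred on its own mean over the 8 arrays, the 2 Scarb1 probes differed by a root mean square of 0.06.

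Cd36 takes up oxidised lipoproteins and long-chain fatty acids. Its probe (chr5:17288600-17288659, mm9, minus strand) read 4.04, 5.08, 4.90 and 4.64 in controls and 4.13, 4.88, 4.91 and 4.48 under the Y RNA siRNA. The same mouse was lowest and the same mice highest under both siRNAs, and the difference was -0.07 ± 0.26 (SE) with a 95% interval of -0.66 to 0.52. With the mouse as a block the interval narrowed to -0.24 to 0.10.

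Marco and Scarb1 kept their direction under every other setting tried, Marco between 0.58 and 1.10 and the Scarb1 probes between -0.22 and -0.12. Colec12 stayed above 0 as well, but between 0.06 and 0.50.

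**Figure D3:**
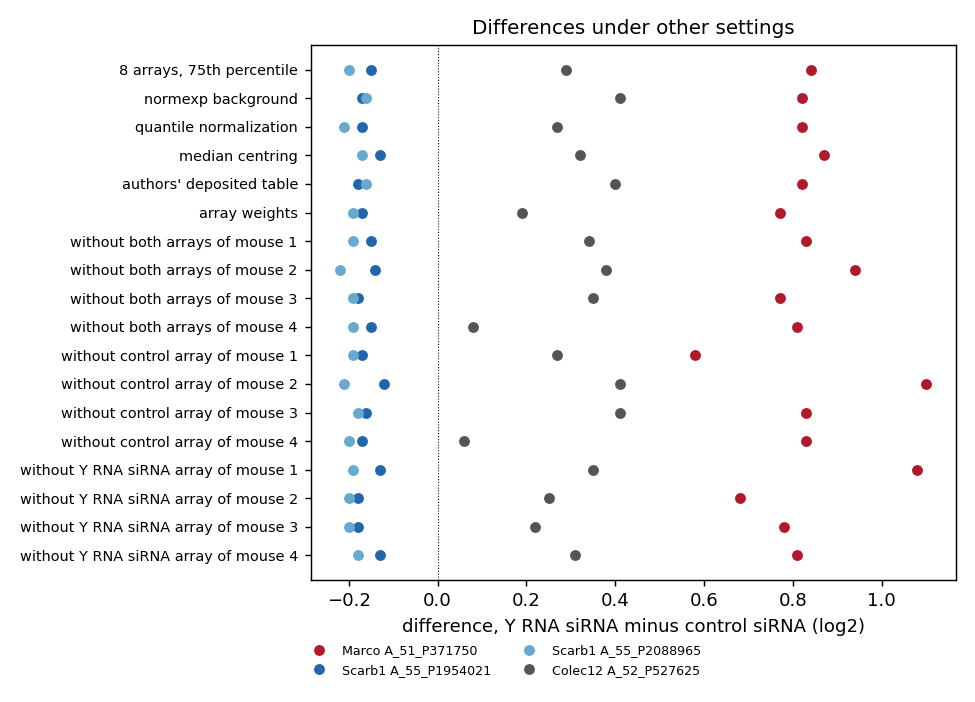
Difference between the siRNAs (x axis, log2) of Marco, both Scarb1 probes and Colec12 under other normalizations and with arrays or mice left out (rows). Marco stays between 0.58 and 1.10 and Scarb1 below 0 throughout, while Colec12 drops to 0.06 and 0.08 where the control array or both arrays of mouse 4 are left out. As all 4 mice agreed in direction for these probes, the rows without a mouse could not reverse them.

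Stab1 encodes stabilin-1, an endocytic receptor of tissue macrophages and sinusoidal endothelium. Its probe (chr14:31952288-31952347, mm9, minus strand) read 7.44, 6.82, 6.54 and 6.68 in controls and 7.39, 6.88, 6.50 and 6.72 under the Y RNA siRNA. The order of the mice was the same under both siRNAs, with mouse 1 on top, and the largest gap within a mouse was 0.06. The difference was 0.00 ± 0.24 (SE), with a 95% interval of -0.55 to 0.56 without the block and -0.11 to 0.12 with it. Its sign was negative with normexp background correction, quantile normalization and the authors' deposited table.

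Cd68 encodes the macrosialin of the lysosomal membrane and is used as a macrophage marker. Among the receptors tested it had the smallest SD over the 8 arrays, 0.05 and 0.04 on its probes. Its brighter probe (chr11:69477775-69477834, mm9, minus strand) read 8.79, 8.84, 8.79 and 8.89 in controls and 8.81, 8.84, 8.74 and 8.74 under the Y RNA siRNA, a difference of -0.04 ± 0.05 (SE). Its other probe (chr11:69478979-69479038, mm9, minus strand) had means of 4.36 ± 0.03 and 4.33 ± 0.05 (SD, n = 4) and a difference of -0.03 ± 0.05 (SE). The 95% intervals, -0.17 to 0.08 and -0.15 to 0.09, exclude a 1.5-fold change. The mouse values depended on the scaling. On the brighter probe, mouse 1 minus the mean of the other mice was -0.01 here, -0.15 with quantile normalization and -0.21 with the authors' deposited table.

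Cd5l encodes AIM, a protein secreted by macrophages that supports their survival and binds lipids. Its probe (chr3:87174823-87174882, mm9, plus strand) read 6.52, 7.62, 8.02 and 7.89 in controls and 6.49, 7.68, 8.18 and 7.80 under the Y RNA siRNA. The samples of mouse 1 were more than 1 log2 unit below all others under both siRNAs. The difference between siRNAs was 0.03 ± 0.43 (SE) without a block, with a 95% interval of -0.98 to 1.03, and the block narrowed the interval to -0.12 to 0.17.

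Cd163, the haptoglobin-haemoglobin receptor, was well above background on 1 of 8 arrays, the control of mouse 2, where it read -3.93. The other controls read -6.64, -6.72 and -6.73, and the Y RNA siRNA samples lay between -6.77 and -6.40. The sequence of its probe (chr6:124270436-124270495, mm9, plus strand) is given because this single probe stands behind the readings.
Cd163 A_55_P2289819: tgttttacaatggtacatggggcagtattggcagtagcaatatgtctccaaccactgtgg
Olr1, which encodes the oxidised lipoprotein receptor LOX-1, was well above background on 0 of 8 arrays, with readings of -6.81 to -6.59 in controls and -6.69 to -6.56 under the Y RNA siRNA. No fold change was taken for these 2 genes, of which Olr1 was not detectable on any array.

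The second question was how far the receptors vary between the mice, each of which gave 1 sample per siRNA. Cd5l, Stab1, Cd36 and Marco differed between mice past the threshold. Cd5l was 2.57-fold lower in mouse 1 than the mean of the other mice, Cd36 1.66-fold lower and Marco 2.00-fold lower, whereas Stab1 was 1.65-fold higher. Msr1 was 1.54-fold and 1.45-fold lower in mouse 1 on its 2 probes without passing in the fit described, though both probes passed with normexp background correction (limma adjusted p 0.0126 and 0.0218) and with the deposited table (0.0218 and 0.0464). With no filter on dim probes none of the 4 calls held, the limma adjusted p being 0.052 for Cd5l, 0.0729 for Stab1, 0.136 for Cd36 and 0.147 for Marco, and without the siRNA in the model that of Marco was 0.319. Scarb1 and Cd68 differed by at most 0.14 between the highest and lowest mouse.

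In limma's F test over the mice, with the siRNA in the model, 4 of 8 receptors passed, against 792 of 26820 probes (2.95%) and 631 of 19287 genes by their brightest probe (3.27%). The adjusted p was 0.00794 for Cd5l, 0.0175 for Stab1, 0.0376 for Cd36 and 0.0397 for Marco in limma. It was 0.0696 and 0.0725 for the Msr1 probes, 0.246 for Colec12, 0.337 and 0.858 for Scarb1 and 0.81 and 0.79 for Cd68. The median range between mouse means was 0.85 over the 8 receptors and 0.27 over all tested probes. Both arrays of mouse 1 lay below all others for Cd36, both Msr1 probes and Cd5l (13.4% of all probes) and above all others for Stab1 and the second Cd68 probe (18.4% of all probes), so that 6 of 11 probes set mouse 1 outside the other arrays, beside 31.8% of all probes. The signs of the mouse 1 differences of Cd36, Msr1, Marco, Stab1 and Cd5l were the same with normexp, quantile normalization, median centring and the deposited table, where the median over all tested probes of mouse 1 minus the others was 0.012 to 0.062. Without mouse 1 the limma adjusted p was 0.367 for Cd5l, Stab1 and Cd36 and 0.379 for Marco, and only 2 probes of the array passed. The unadjusted limma p was then 0.0135 for Cd36, 0.0164 for Cd5l, 0.0174 for Stab1 and 0.0279 for Marco. Leaving out any mouse also leaves fewer arrays in the fit, so a lost call does not show which mouse it came from. Without mouse 3, Cd36, Marco and Stab1 had adjusted p-values of 0.113, 0.0868 and 0.0926 in limma, and 122 probes passed. Without mouse 4, Cd36 and Marco had 0.0695 and 0.0771, with 281 probes passing, and without mouse 2 Cd36 had 0.0568. Both arrays of a mouse lay in neighbouring columns of the same slide row. Mouse, culture, RNA extraction and position on the slide therefore cannot be told apart in these values. The 75th percentile was 9.01 and 9.03 on the arrays of mouse 1 and 9.18 to 9.33 on the others, and its part was not tested.

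**Figure D4:**
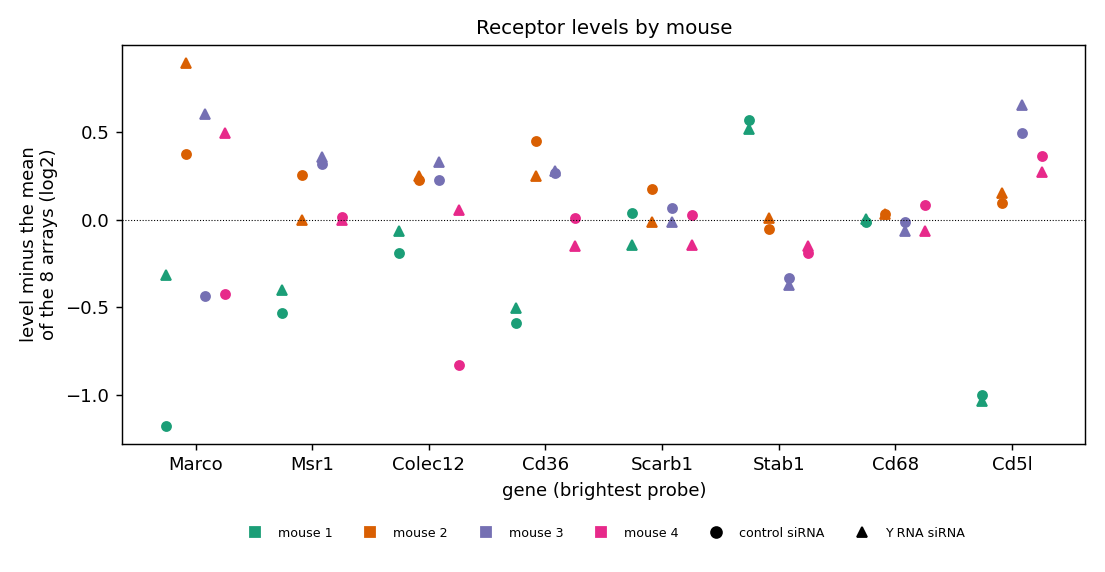
Level of the brightest probe of each receptor minus its mean over the 8 arrays (y axis, log2), by gene (x axis), with colour for the mouse and shape for the siRNA. Both mouse 1 samples are lowest for Cd5l, Cd36 and Msr1 and highest for Stab1, the 2 samples of a mouse lie close together for these genes, and Cd68 and Scarb1 stay near 0.

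Of the 3 osteoclast markers above background, Ctsk and Acp5 were lowest in the same mouse and Oscar was not. The summed linear level of the list, relative to the 75th percentile, was 12.8 in mouse 1 and 45.4, 67.4 and 54.8 in mice 2 to 4, with Ctsk and Acp5 making up nearly all of it and Calcr not well above background on any array. Its range was 13.9 to 74.3 in controls and 11.6 to 60.6 under the Y RNA siRNA. Ctsk (cathepsin K) and Acp5 (tartrate-resistant acid phosphatase) differed between mice with limma adjusted p-values of 0.00062 and 0.00933. Oscar read -2.35 in mouse 1 and -2.47 to -2.39 in the others, with a limma adjusted p of 0.842. Fibroblast markers summed to 0.954 in mouse 1 and 1.82 to 2.77 in the others, with Pdgfra and Lum not well above background on any array. Platelet markers, nearly all Pf4, summed to 56.6 against 84.9 to 98.4. Macrophage markers summed to 1200 in mouse 1 and 956 to 1040 in the others. No tested marker of these 3 lists passed between mice, the lowest limma adjusted p being 0.0574 (Col1a1), 0.0675 (Pf4) and 0.0577 (Cd14). Neutrophil markers summed to 4.39 in mouse 1 and 5.4 to 6.22 in the others, and lymphocyte markers to 6.47 against 5.49 to 6.25. The part of these cells in the receptor values was not tested, and fewer cells of a type cannot be told from less RNA per cell in bulk samples.

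The genes most like the 3 most variable receptors were found by the smallest root mean square difference of centred levels over the 8 arrays, among 12073 genes. For Marco these were Saa3, Saa1 and Stag3, at 0.32, 0.33 and 0.35, where the median gene was at 0.66. Saa3 and Saa1 encode serum amyloid A proteins of the acute phase response. The differences between siRNAs of Saa3, Saa1 and Stag3 were 0.59 ± 0.38, 0.57 ± 0.38 and 0.3 ± 0.22 (SE). Marco's own siRNA difference was part of the levels matched, so a difference in the same direction follows from the choice. For Cd5l they were Pkp2, Fam171a1 and Map6, each at 0.11 against a median of 0.62. For Cd36 they were Maoa, Stra6l and Oaf, at 0.07, 0.07 and 0.10 against a median of 0.38. The Cd5l and Cd36 neighbours were likewise lowest in mouse 1, as the measure requires.

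The rest of the scavenging pathway was read from 7 gene lists, by the brightest probe of each gene. For the siRNA difference, 0 genes of any list passed in either direction in limma without or with the block, against 0% of all genes tested. Among other scavenger receptors, 10 of 15 were tested, 4 with a difference above 0 and 6 below, with a median of -0.06. The smallest unadjusted limma p-values in this list were 0.0766 for Cd44, the hyaluronan receptor, and 0.139 for Stab2, the hyaluronan receptor stabilin-2. Their differences were -0.19 ± 0.09 and -0.31 ± 0.19 (SE). Both, picked by that p, were lower in 4 of 4 mice, beside 8.67% of all probes. Of the proteins with scavenger receptor cysteine-rich domains, 4 of 7 were tested, 2 above and 2 below 0 with a median of -0.01, led by Ssc4d at -0.17 ± 0.08 and Cd6 at -0.12 ± 0.08 (SE). The LAMP relatives of Cd68 gave 3 of 4 tested, with a median of 0.00, Lamp3 at 0.02 ± 0.05 and Lamp1 at -0.03 ± 0.07 (SE).

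Genes that handle lipid after uptake were all 15 tested, 6 above and 9 below 0, with a median of -0.02. Npc1, which moves cholesterol out of lysosomes, was at 0.12 ± 0.05 and Lipa, the lysosomal acid lipase, at -0.08 ± 0.06 (SE). Of the transcription factors known to act on receptor genes, 13 of 13 were tested, 4 above and 9 below 0, with a median of -0.07. Srebf1, a regulator of lipid synthesis, was at -0.15 ± 0.08 (SE). Of the haem and iron handling genes, 8 of 8 were tested, 2 above and 6 below 0, with a median of -0.04. Hmox1 (haem oxygenase 1) was at -0.13 ± 0.08 and Slc40a1 (the iron exporter ferroportin) at -0.21 ± 0.13 (SE). Apoptotic cell receptors and bridging molecules gave 12 of 13 tested, 4 above and 8 below 0, with a median of -0.02, Pros1 (the bridging protein S) at -0.08 ± 0.08 and C1qa (a chain of complement C1q) at -0.08 ± 0.11 (SE).

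Between mice, 10 genes of these lists passed in limma's F test, beside the 3.27% of all genes given above. In lipid handling, 4 of 15 passed: the fatty acid-binding protein gene Fabp4 (5.08 in mouse 1 and 5.91 to 5.97 in the others), the lipoprotein lipase gene Lpl (6.35 against 6.92 to 7.31) and the lipid droplet gene Plin2 (6.06 against 6.43 to 6.86) were lowest in mouse 1, and Apoe (9.42 against 8.73 to 9.03) was highest there. Of the other scavenger receptors, 2 of 10 passed. Clec7a (dectin-1) was at 5.55 in mouse 1 and 6.18 to 6.48 in the others. Stab2 was at 1.04, 1.54, 1.15 and 1.67 in mice 1 to 4. Of the cysteine-rich proteins 0 of 4 passed, and of the LAMP relatives 0 of 3. Among the transcription factors 1 of 13 passed, Nr1h3 (LXR alpha), at 2.81 against 3.48 to 3.67. Among the iron genes 1 of 8 passed, the transferrin receptor Tfrc, at 2.42 against 5.01 to 5.28. Among the apoptotic cell genes 2 of 12 passed, with Axl at 2.55 in mouse 1 and 0.94 to 1.40 in the others and Mfge8 at 7.00 against 8.31 to 8.77.

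RefSeq promoter entries (GRCm38.p6) matched 7 of the 10 receptors: Cd36, Marco, Olr1, Stab1, Cd68, Cd163 and Cd5l. The 250 bases before the start are printed for 4 of them that behaved differently on the arrays: Marco with the largest siRNA difference, Cd5l with the widest range between mice, Cd68 with a narrow one, and Olr1 not above background. Capitals mark GAGGAA or its complement TTCCTC, the ETS-type purine-rich element as bound by the macrophage factor PU.1.
Marco chr1:120505025-120505274, minus strand: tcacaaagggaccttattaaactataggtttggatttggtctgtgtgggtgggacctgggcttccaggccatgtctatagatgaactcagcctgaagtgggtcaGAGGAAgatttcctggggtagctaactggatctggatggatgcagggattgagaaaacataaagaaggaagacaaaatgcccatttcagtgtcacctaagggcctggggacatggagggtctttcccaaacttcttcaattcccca
Cd5l chr3:87357631-87357880, plus strand: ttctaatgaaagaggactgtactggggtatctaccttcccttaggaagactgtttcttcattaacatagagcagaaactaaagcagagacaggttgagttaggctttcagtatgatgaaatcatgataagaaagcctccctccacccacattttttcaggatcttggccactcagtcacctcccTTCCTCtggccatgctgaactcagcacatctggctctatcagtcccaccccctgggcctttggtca
Cd68 chr11:69666171-69666420, minus strand: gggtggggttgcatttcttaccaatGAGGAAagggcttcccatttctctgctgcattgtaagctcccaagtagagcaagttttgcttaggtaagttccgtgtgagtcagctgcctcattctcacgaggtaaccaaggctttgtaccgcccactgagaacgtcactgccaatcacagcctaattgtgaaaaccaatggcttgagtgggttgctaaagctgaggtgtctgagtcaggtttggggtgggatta
Olr1 chr6:129507166-129507415, minus strand: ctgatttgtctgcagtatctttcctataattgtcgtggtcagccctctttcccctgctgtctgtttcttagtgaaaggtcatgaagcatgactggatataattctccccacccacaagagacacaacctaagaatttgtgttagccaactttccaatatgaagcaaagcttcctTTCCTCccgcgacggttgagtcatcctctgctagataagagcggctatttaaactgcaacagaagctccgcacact
The element on either strand was found in 5 of 7 receptor promoters, these 4 and Stab1, and in 23.1% of 27025 promoters of the same length. Its first base lay 146 bases before the start in Marco, 66 in Cd5l, 225 in Cd68 and 76 in Olr1. An AP-1 element, TGANTCA on either strand, was found in Cd68, 149 and 24 bases before the start, and in Olr1, 60 bases before it, so in 2 of 7 receptors and 6.87% of all promoters. The nuclear receptor half-site AGGTCA on either strand was found in Cd36 and Olr1, 2 of 7, and in 13.8% of all. TATAAA on the sense strand was found in 0 of 7 and in 8.12% of all. No match of one motif overlapped a match of another in these promoters, and a match describes letters in a window only.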

How the data were processed

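Per the labels' protocols, 0.2 µg of total RNA from each of 8 BMDM samples was Cy3-labelled for 1-colour Agilent arrays (design 028005). The deposited scanner files hold linear intensity per spot from Feature Extraction 10.7.3.1, background-subtracted but not normalized between arrays, per the file headers. A table of log2 values deposited by the authors, whose normalization is not stated, served as an alternative.

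Control spots and outlier-flagged spots were left out, and spots of a probe averaged after scaling to the array's 75th percentile (9.01 to 9.33 in log2). Kept were 26820 of 55681 probes, those well above background on 4 or more arrays. Tests used limma 3.58.1 (R 4.3.3, two-sided), Benjamini-Hochberg adjusted over all kept probes, threshold 0.05. Code was tested on simulated data. The number of arrays limits the precision.

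The series design gives 2 conditions on 4 mice. The labels do not name the mouse of each sample, and replicate numbers were taken as mouse numbers. Deviations from the group means correlated at 0.587, 0.142, 0.533 and 0.248 between the 2 arrays sharing numbers 1 to 4. Arrays with different numbers were not set beside these, and arrays sharing a number were neighbours on the slide. The correlations therefore cannot establish the pairing. On the single slide, Y RNA siRNA arrays took columns 1 and 3 and controls 2 and 4, so siRNA and column cannot be told apart.

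Receptors and gene lists were chosen with earlier results of these data known. Genes named were all receptors, the 2 genes of each list with the smallest unadjusted siRNA p, the 3 nearest genes of the 3 most variable receptors, and markers that moved with a mouse; 1 gene under this rule is not reported here. List genes that passed between mice were named after their values were seen. Symbols of 2884 probes were updated through RefSeq. Probe positions were not placed in exons.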

Additional observations from a re-analysis of the deposited data

Results flagged for a closer look

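Cd163 in the control sample of mouse 2 read -3.93, far from the other 3 controls at -6.64, -6.72 and -6.73. This was the only array on which its probe was well above background. The gap exceeded Dixon's 95% critical value for 4 samples. It was 1 of 26 groups of receptor values tested, and chance passes about 1 in 20.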

How the results depend on the processing

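No receptor probe passed the siRNA threshold under any alternative. Over all probes, 0 passed in each planned setting except 3 with the random replicate block. With the replicate block, 0 passed (Marco's limma adjusted p was 0.333), 1 when joined to normexp and 2 when joined to the deposited table, both chosen after seeing the data; the block changed no receptor's call. Stab1 turned to -0.01 with normexp, -0.03 with quantile normalization and -0.02 with the deposited table, with or without the block. Msr1 (A_52_P607128) turned to 0.00 with median centring, with or without the block, and 0.01 within slide row 2. Cd68 (A_55_P1961943) turned to 0.02 within row 1. Leaving out 1 array gave -0.28 to 0.09 for Cd36, -0.21 to 0.10 and -0.05 to 0.22 for Msr1, -0.17 to 0.19 for Stab1 and -0.31 to 0.37 for Cd5l. Leaving out 1 mouse, with or without the block, gave -0.08 to 0.05 for Msr1 (A_52_P607128), -0.01 to 0.02 for Stab1 and -0.02 to 0.06 for Cd5l. The number of probes differing between mice, 792, became 4355 with normexp, 2036 with the deposited table, 123 with no filter, 1245 with probes well above background on all 8 arrays, and 2 to 757 without 1 mouse. With no filter, the limma adjusted p between mice was 0.136 for Cd36, 0.147 for Marco, 0.0729 for Stab1 and 0.052 for Cd5l. Marco's was 0.319 without a siRNA term. Msr1 passed with normexp (0.0126 and 0.0218), the deposited table (0.0218 and 0.0464) and without mouse 2 (0.0443 and 0.0445), and on 1 probe with the 8-array filter (0.0497) and no siRNA term (0.0394), in limma. The causes were not tested. Cd163 and Olr1 lay at the limit of detection.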
